A study of Mus musculus with 8 samples.

Results

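The 10 genes described here carry the thyroid axis in the pituitary: Tshb and Cga, whose products make thyroid-stimulating hormone (TSH), Trhr, the receptor through which the hypothalamus drives them, the transcription factors Gata2 and Eya3, the deiodinases Dio1 and Dio2, and the hormone receptors Thra, Thrb and Rxrg. They were taken by gene symbol and not by a rule on their values, though earlier results of these data were known by then. All 10 were found among the 49585 gene rows of each library. Bulk mRNA sequencing was done on whole pituitary of wild-type C57BL/6 mice on a regular chow diet, with 4 young samples (2-3 months) and 4 old samples (18-24 months) and no other treatment. Circulating blood cells had been removed by perfusion. The labels give no sex for these mice, and nothing states that each sample came from a separate mouse, so the spread behind each p-value may be technical. Levels are FPKM, the number of sequenced fragments scaled to exon length and to the size of the library, and the files hold 15042321 to 20429604 fragments per library.

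Thyrotrophs are the pituitary cells that secrete TSH, a pair of protein chains of which the beta chain is particular to TSH and the alpha chain is shared with the gonadotropins. Thyrotropin-releasing hormone (TRH) from the hypothalamus acts on its receptor on these cells, and TSH in turn makes the thyroid release thyroxine. Deiodinases in the pituitary convert thyroxine into triiodothyronine, which binds thyroid hormone receptors paired with retinoid X receptors and lowers transcription of both TSH chains, so the loop closes on itself.

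Among these genes, Trhr and Dio2 were higher in old pituitary and passed the test, by 3.91-fold and 4.02-fold in mean FPKM. Gata2 was 2.18-fold higher in old pituitary, with every old library above every young one, and missed the threshold. Tshb and Cga, the genes of the hormone itself, differed between the ages by less than the spread between libraries. The count of members that passed was 2 of 10 higher and 0 of 10 lower, where 1.86% and 0.472% of the 23498 genes tested passed in those directions. Passing means a Benjamini-Hochberg adjusted p under 0.05 from limma on log2(FPKM + 0.1), a scale that understates the change of genes with low FPKM. At an unadjusted p under 0.05, 3 members were higher and 0 lower, against 18.0% and 3.79% of all genes tested. Every old library lay above every young one for 4 members (Trhr, Dio2, Gata2 and Thra), against 13.4% of all genes tested, and every old library lay below for 0 members, against 2.06%. Overlap between ages is read here and below on FPKM as listed, and narrow separations can be lost under other scalings of the libraries. The median log2 fold change was 0.27 over the members and 0.15 over all genes tested.

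**Figure D1:**
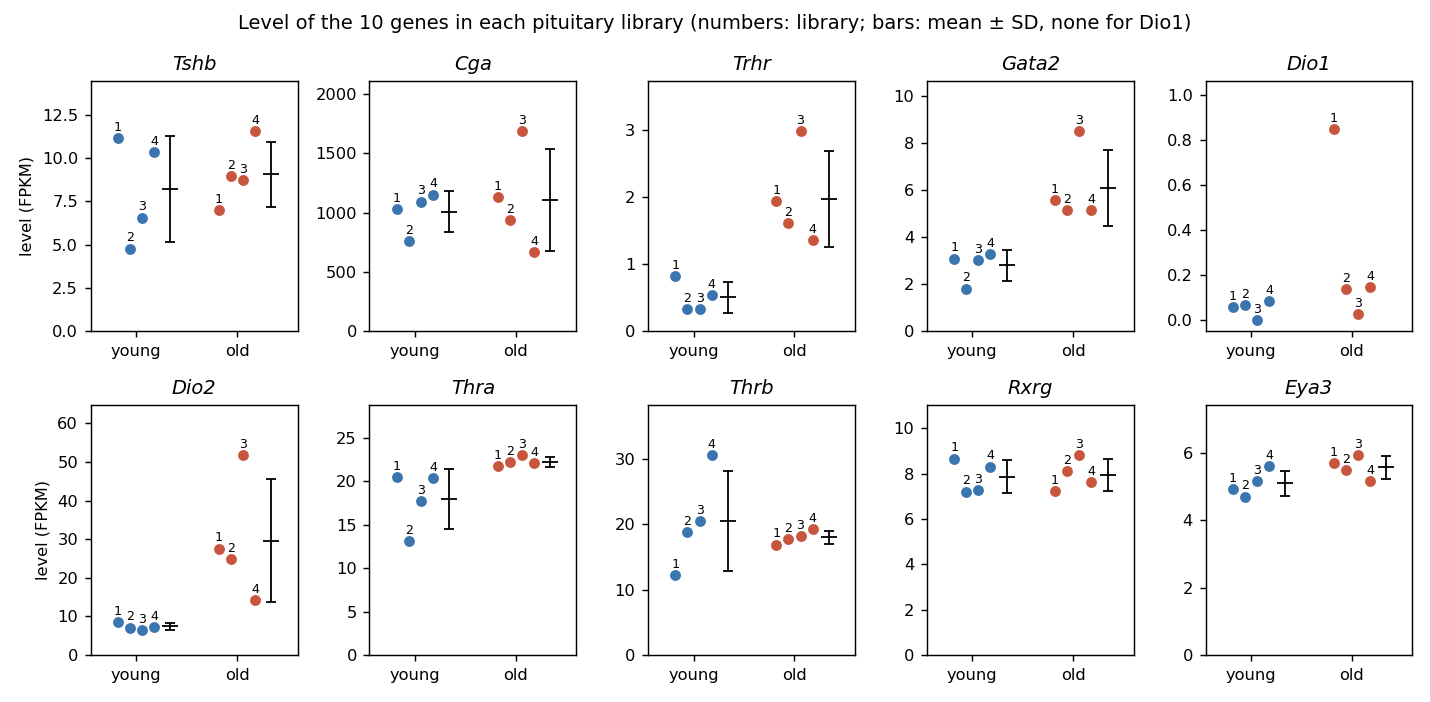
Level of each of the 10 genes in FPKM (y axes, each starting at or just under 0) in the young (blue) and old (red) libraries, numbered 1 to 4 within an age, with the mean ± SD beside them (left out for Dio1, which was listed at 0 in 1 library). The old libraries stand above all young ones for Trhr, Dio2, Gata2 and Thra. Old library 3 is the highest of the old for Trhr, Dio2, Gata2, Cga, Thra, Rxrg and Eya3 but not for Tshb, Thrb and Dio1.

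Tshb encodes the beta chain of TSH and is the gene that defines thyrotrophs. Its level in the young libraries 1 to 4 was 11.2, 4.77, 6.56 and 10.3 FPKM, and in the old libraries 1 to 4 it was 6.98, 8.94, 8.74 and 11.6 FPKM. The ages overlapped almost entirely, the lowest value being in young library 2 and the highest in old library 4. The means were 8.21 ± 3.05 FPKM in young against 9.06 ± 1.89 FPKM in old pituitary (SD, n = 4 each). The log2 fold change was 0.20 ± 0.29 (SE, limma adjusted p = 0.73), with -0.39 to 0.78 spanning 2 standard errors on either side. That span holds both a fall and a rise, and the sign depended on young library 2, without which the value was -0.03. Whole glands were sequenced, so for every gene here fewer or more cells of a type and less or more RNA per cell cannot be told apart.

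Per kilobase, Tshb stood far below Cga, but its exon length of 4555 bases includes a transcript of 4396 bases that keeps an intron, while its coding transcripts run from 476 to 605 bases. The level of Tshb against other genes therefore depends on that length. The same length divides every library, so its choice does not alter the comparison between ages. A change in the share of each transcript would also move the Tshb value, and these shares were not tested. Behind the values stood 874, 327, 610 and 862 fragments in the young libraries and 512, 753, 767 and 921 in the old ones. Tshb lies on chromosome 3 of GRCm38, from 102775465 to 102782718 on the minus strand.

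Cga encodes the alpha chain, which thyrotrophs and gonadotrophs both make. It was by far the most abundant of the 10 genes, with 1027, 762, 1091 and 1150.2 FPKM in the young libraries and 1129, 934, 1686 and 667 FPKM in the old libraries. The old libraries spread on both sides of the young ones, with old library 3 above and old library 4 below all of them. The means were 1008 ± 171 and 1104 ± 432 FPKM (SD, n = 4 each), and the log2 fold change was 0.07 ± 0.28 (SE, limma adjusted p = 0.91). Its sign turned under other scalings of the libraries, under which it was between -0.084 and -0.067, and it was -0.06 without young library 2 and -0.16 without old library 3. Cga lies on chromosome 4 from 34893779 to 34907370, and 305 bases, or 32.0% of its exon length, overlap exons of Platr9 on the other strand. Platr9 followed Cga from library to library, at 234, 176, 252 and 268 FPKM in young against 269, 215, 399.8 and 162 FPKM in old pituitary. The counting strand is not given, so reads of the overlapping stretch cannot be assigned to either gene.

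Since gonadotrophs also use Cga, their other genes were read beside it. Lhb, the beta chain of luteinizing hormone, fell from 233 ± 39.3 to 136 ± 9.11 FPKM (SD over 4 libraries each), or by a log2 fold change of -0.76 ± 0.14 (SE, limma adjusted p = 0.044). Its old values of 142, 140.0, 122 and 138 FPKM all lay below the young values of 246, 178, 236 and 270.2 FPKM. The call rested on all libraries together: without young library 2 the adjusted p was 0.019, and without each of the other 7 in turn it was 0.078 to 0.12. Gnrhr, the receptor that gonadotrophs use for gonadotropin-releasing hormone, fell from 13.4 ± 1.54 to 5.32 ± 1.09 FPKM (log2 fold change -1.33, adjusted p = 0.017 from limma). Fshb, the beta chain of follicle-stimulating hormone, had 32.6 FPKM in young against 52.8 FPKM in old pituitary (adjusted p = 0.30). The 4 gonadotroph markers (2 lower, 0 higher) summed to 213 to 347 FPKM in young against 179 to 213 FPKM in old libraries. Old library 3, which had the most Cga, had the lowest sum of them, 179 FPKM, of which Lhb made up 122 FPKM. Gnrhr and Fshb were lowest of the old in libraries 2 and 1. Nr5a1, the remaining marker, was at 4.66, 3.29, 5.08 and 4.50 FPKM in the old libraries, highest in library 3. It did not pass between ages (limma adjusted p = 0.50). The part of gonadotrophs in the Cga level was not tested.

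The stretches of 250 bases before the RefSeq transcription starts of Tshb, Cga and Dio2 are shown because transcription of these genes is where thyroid hormone, GATA2 and TRH signalling are known to act. They are given 5′ to 3′ on the strand of the gene, in lower case, with matches to the searched letters in capitals.
Tshb (chr3:102782715-102782964, minus strand): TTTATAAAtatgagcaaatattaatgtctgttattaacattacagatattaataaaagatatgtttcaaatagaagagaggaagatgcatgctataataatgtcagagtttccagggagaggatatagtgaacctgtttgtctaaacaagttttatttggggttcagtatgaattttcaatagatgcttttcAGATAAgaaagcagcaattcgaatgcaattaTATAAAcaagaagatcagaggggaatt
Cga (chr4:34893529-34893778, plus strand): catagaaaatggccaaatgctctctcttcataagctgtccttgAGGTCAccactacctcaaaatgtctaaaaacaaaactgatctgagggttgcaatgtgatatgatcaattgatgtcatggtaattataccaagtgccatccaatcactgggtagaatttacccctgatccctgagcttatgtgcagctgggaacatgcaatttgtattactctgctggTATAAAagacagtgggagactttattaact
Dio2 (chr12:90739039-90739288, minus strand): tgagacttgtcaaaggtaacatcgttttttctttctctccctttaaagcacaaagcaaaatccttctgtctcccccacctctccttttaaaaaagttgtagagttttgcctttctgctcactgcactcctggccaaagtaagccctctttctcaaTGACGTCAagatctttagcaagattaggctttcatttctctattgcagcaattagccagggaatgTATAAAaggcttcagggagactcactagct
Coordinates and letters are those of GRCm38.p6. Both strands were searched for AGATAA and TGATAA, which are 2 forms of the GATA motif, for AGGTCA, the half-site that thyroid hormone receptors and other nuclear receptors bind, for TGACGTCA, the cyclic AMP response element, and for TATAAA.

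In the Tshb stretch, AGATAA began 58 bases before the start and TATAAA 27 bases before it, and at the far end TATAAA on both strands overlapped in a single capital run. AGATAA was present in 9.99% of the 32851 promoters of this length, TGATAA in 7.94% and TATAAA in 12.4%. The Cga stretch held AGGTCA at 207 and TATAAA at 30 bases before the start, and 14.0% of all promoters held AGGTCA. The Dio2 stretch held TGACGTCA at 95 and TATAAA at 30 bases before the start. The cyclic AMP response element, present in 1.55% of all promoters, was the rarest of the 5 motifs searched, and Dio2 was the member whose promoter held it. RefSeq promoters were at hand for 8 of the 10 genes, with 11 starts in all. AGGTCA also stood in the promoter of the first Thrb start and of the second Rxrg start, TATAAA in that of the second Thrb start, and the promoters of Gata2, Dio1 and Eya3 held none of the letters searched. A match is a stretch of letters and was not tested as a binding site.

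Trhr encodes the receptor for TRH, through which the hypothalamus stimulates release and synthesis of TSH. Which cells of the whole gland carried it was not tested, so its level is not assigned to thyrotrophs. Its level was 0.819, 0.334, 0.332 and 0.536 FPKM in the young libraries and 1.94, 1.62, 2.99 and 1.37 FPKM in the old libraries. All 4 old values lay above all young ones, with the smallest gap between young library 1 and old library 4. The mean rose from 0.506 ± 0.230 to 1.98 ± 0.713 FPKM (SD over 4 libraries each), or by a log2 fold change of 1.79 ± 0.32 (SE, limma adjusted p = 0.037). Trhr was a gene of low level: the values rest on 56, 20, 27 and 39 fragments in young libraries and 124, 119, 229 and 95 in old ones, or 142 against 567 in all, computed with a fitted exon length of 3976 bases where the annotation has 4000. It lies on chromosome 15 from 44196135 to 44235912.

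The call for Trhr was close to the threshold. Scaled in 3 other ways, the adjusted p was 0.052 to 0.054 at log2 fold changes of 1.66 to 1.67. Without young library 1 it was 0.049, and without each of the other 7 libraries in turn it was 0.052 to 0.10, while the log2 fold change stayed between 1.58 and 2.02. Over all genes, too, the number called higher went from 436 to between 64 and 327 with 1 library fewer.

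The other genes of TRH signalling did not pass the test. Of the 14 genes in this list, 11 were tested and 0 passed with limma or with voom, 2 had an unadjusted p under 0.05, both higher, and the median log2 fold change was 0.14. For this list and those below, the shares over all genes at an unadjusted p under 0.05 were 18.0% higher and 3.79% lower. With voom, 6.11% of all genes passed higher and 1.52% lower. Gna11, an alpha subunit of the G proteins that couple this receptor to phospholipase C, had 18.9 FPKM in young against 23.5 FPKM in old pituitary (log2 fold change 0.31, adjusted p = 0.15). Itpr1, a receptor that releases calcium from internal stores, had 6.80 and 8.23 FPKM (log2 fold change 0.27, adjusted p = 0.15). For these 2 genes every old library lay above every young one. Itpr3, of the same family, had 2.10 and 3.14 FPKM and overlapped between ages (adjusted p = 0.32). Trh itself, its second receptor Trhr2 and the TRH-degrading enzyme Trhde were too low to be tested, each with a mean under 0.05 FPKM at both ages.

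Gata2 encodes a transcription factor that works with POU1F1 in thyrotrophs to switch on Tshb, and that endothelial cells also make. Its level was 3.09, 1.81, 3.02 and 3.29 FPKM in the young libraries and 5.58, 5.15, 8.52 and 5.17 FPKM in the old libraries. Old libraries 1, 2 and 4 lay close together above all young ones, and old library 3 stood apart on top. The means were 2.80 ± 0.672 and 6.10 ± 1.62 FPKM (SD, n = 4 each), and the log2 fold change of 1.10 ± 0.24 (SE) had a limma adjusted p of 0.059. The 7 endothelial markers had 0 calls with limma or voom, 0 with an unadjusted p under 0.05, a median log2 fold change of 0.06 and summed levels of 70.6 to 98.7 FPKM in young against 72.8 to 101 FPKM in old libraries, which overlapped. Endothelial cells need not be the only other source, and the part of any cell type in the Gata2 level was not tested. Gata2 lies on chromosome 6 from 88193891 to 88207032, and 1092 fragments in young and 2373 in old libraries stood behind it.

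Gata2 passed the test under 4 of 18 other settings. With a pseudocount of 1 its adjusted p was 0.035, with a mean of at least 1 FPKM 0.032, with a mean-variance trend 0.035 and with voom on the recovered fragments 0.0028. Voom called 3 members higher (Trhr, Dio2 and Gata2) and 0 lower, against 6.11% and 1.52% of all genes. Leaving out any library gave 0.076 to 0.13.

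Other regulators of the thyrotroph lineage moved less than Gata2. Eya3, a coactivator that takes part in the seasonal switch of Tshb in the pars tuberalis, was at 4.92, 4.71, 5.17 and 5.61 FPKM in the young libraries and 5.70, 5.49, 5.95 and 5.16 FPKM in the old libraries. Old libraries 1 and 3 lay above all young ones and the other two did not. Its log2 fold change of 0.13 ± 0.095 (SE, limma adjusted p = 0.47) was close to the median of all genes and turned to between -0.022 and -0.0055 under the 3 other scalings. Eya3 lies on chromosome 4 from 132638987 to 132724765.

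Of the 14 genes in the list of thyrotroph lineage and TSH transcription factors, which leaves out Gata2 and Eya3, 11 were tested and 0 passed with limma, with a median log2 fold change of 0.13. At an unadjusted p under 0.05, 2 were higher and 0 lower, and voom called the same number. Pou1f1, needed for thyrotrophs, somatotrophs and lactotrophs alike, was at 57.1 ± 11.7 FPKM in young against 55.0 ± 3.86 FPKM in old pituitary (SD, n = 4 each). Ssbp2, a cofactor of LIM domain transcription factors, had 2.33, 2.56, 2.68 and 3.07 FPKM in young against 3.41, 4.08, 3.79 and 3.96 FPKM in old libraries, without overlap (log2 fold change 0.51, adjusted p = 0.064). Lhx3, a LIM factor of the early pituitary, had 19.7 and 26.5 FPKM without overlap (log2 fold change 0.44, adjusted p = 0.15). Tef, first known as thyrotroph embryonic factor, had 8.80 and 12.2 FPKM and overlapped (adjusted p = 0.30). Sox14, a marker of thyrotrophs, was listed at 0 in 6 of the 8 libraries and at 0.028 and 0.032 FPKM in young libraries 1 and 2. It therefore did not help to check for these cells, while Tshb was present in every library. Trhr and Dio2 were present in every library too, but are not read as marks of thyrotrophs alone.

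Dio2 encodes the type 2 deiodinase, which converts thyroxine into triiodothyronine within the cell. Its level was 8.58, 7.10, 6.52 and 7.30 FPKM in the young libraries and 27.6, 24.9, 51.9 and 14.1 FPKM in the old libraries. The young libraries differed little among themselves and the old ones widely, old library 4 being nearest to the young and old library 3 the farthest. The mean rose from 7.37 ± 0.867 to 29.6 ± 15.9 FPKM (SD over 4 libraries each), or by a log2 fold change of 1.85 ± 0.35 (SE, limma adjusted p = 0.046). Behind it stood 3028 fragments in young and 12505 in old libraries. Dio2 lies on chromosome 12 from 90724552 to 90738438 on the minus strand.

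For Dio2 too, the direction held under every setting tried and the call did not. The log2 fold change was 1.53 to 2.15 over these settings. The adjusted p was 0.065 to 0.066 with the 3 other scalings, 0.056 with a pseudocount of 0.01 and 0.06 without a filter on low values. Without old library 4 it was 0.027, and without each of the other 7 libraries in turn it was 0.059 to 0.12. The plot of adjusted p by setting shows this for Trhr, Dio2 and Gata2 together.

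**Figure D2:**
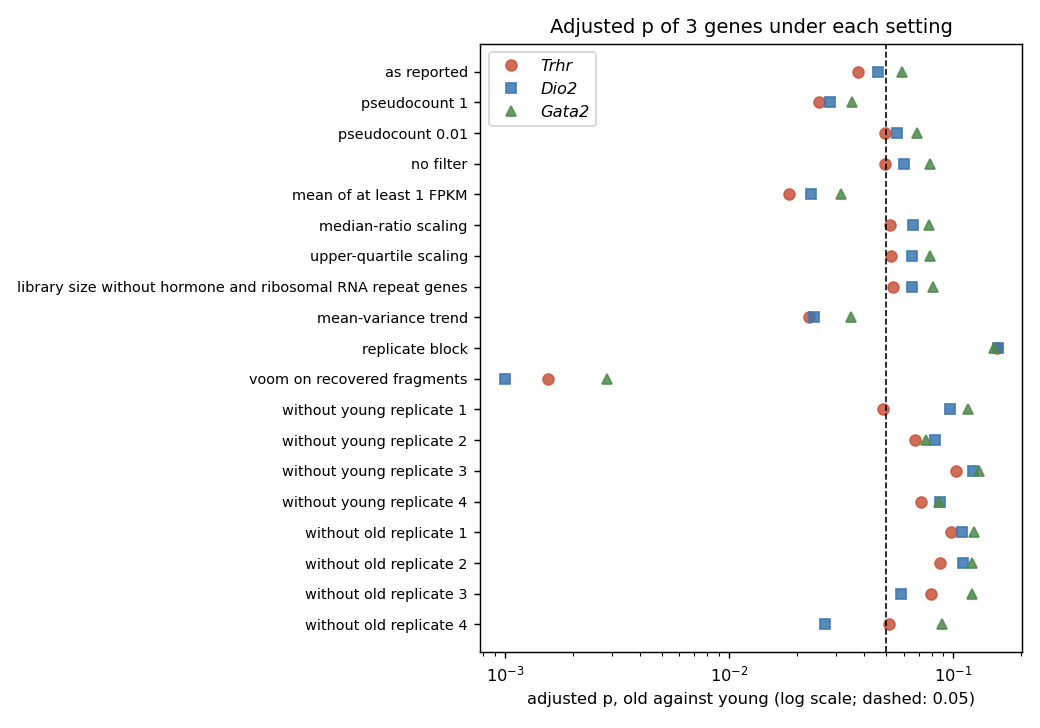
Adjusted p for old against young (x axis, log scale) of Trhr (circles), Dio2 (squares) and Gata2 (triangles) as reported and under each other setting (y axis), with a dashed line at 0.05. Most points lie between 0.019 and 0.13, around the line, those with voom on the recovered fragments lie farthest below it (0.0010 to 0.0028), and those with the replicate block farthest above it (0.15 to 0.16).

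Exons of Dio2 share 100 bases (1.72% of its exon length) with Gm26512, a long noncoding RNA that starts beside it on the other strand. Gm26512 was at 1.40, 1.73, 1.48 and 1.04 FPKM in the young libraries and 3.39, 3.98, 7.78 and 2.48 FPKM in the old libraries. Its old libraries lay above all young ones as those of Dio2 did, and in both genes old library 3 was highest and old library 4 lowest of the old. The log2 fold change of Gm26512 was 1.47 ± 0.33 (SE, limma adjusted p = 0.066). The counting strand is not given, so reads of the shared bases cannot be assigned to either gene. Dio2 as counted begins at 90738438. The RefSeq start of the stretch printed above lies further upstream, within the span of Gm26512 (90738201 to 90869235). Whether the 2 genes rose independently was not tested.

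Dio2 is also made by glial cells, among them astroglia, and the posterior lobe is part of a whole pituitary. Of 6 markers of pituicytes and astroglia, 3 were high enough to be tested and 0 passed with limma, while 1 was higher and 1 lower at an unadjusted p under 0.05 and voom called 1 higher. They summed to 2.27 to 2.92 FPKM in young against 2.35 to 5.75 FPKM in old libraries, with the highest sum in old library 4. Rax and Nkx2-1, transcription factors of pituicytes, were at 0.480 and 0.422 FPKM in old library 4 and at most 0.035 FPKM in every other library. Old library 4 was thus the old library with the highest sum of these markers and the least Dio2, and Col25a1 made up 2.91 of its 5.75 FPKM. The markers did not all peak there. Among the old libraries, Slc1a3 was highest in library 4 (0.763 FPKM), Gfap in library 1 (0.133 FPKM) and Aqp4 in library 2 (1.14 FPKM). The part of these cells in the Dio2 level was not tested. Col25a1 was the marker of this list that was higher in every old library, at 0.436, 0.590, 0.605 and 0.414 FPKM in young against 1.01, 1.04, 1.66 and 2.91 FPKM in old pituitary (adjusted p = 0.068), while Aqp4, a water channel of astroglia, was at 1.43 and 1.00 FPKM, lower in every old library (adjusted p = 0.10).

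Dio1 encodes the type 1 deiodinase, best known from liver and kidney and also present in the pituitary. It was barely detected: the young libraries held 2, 2, 0 and 3 fragments and the old libraries 27, 5, 1 and 5. Of the 38 fragments in old pituitary, 27 came from old library 1. Its levels were 0.0591, 0.0675, 0 and 0.0833 FPKM in young against 0.851, 0.137, 0.0263 and 0.145 FPKM in old libraries, and they overlapped (log2 fold change 0.96 ± 0.57 SE, limma adjusted p = 0.37). Without old library 1 its mean fell under 0.1 FPKM and it was no longer tested. A count of 0, as in young library 3, allows up to 3 fragments, or 0.147 CPM in that library, by counting error alone. Dio1 lies on chromosome 4 from 107291465 to 107307169.

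The genes that make deiodinases work as selenoproteins or mark them for turnover gave no call. Of 9 genes in this list, 8 were tested and 0 passed with limma or voom, 1 was higher at an unadjusted p under 0.05, and the median log2 fold change of 0.17 was near that of all genes. Usp20, which removes ubiquitin from the type 2 deiodinase, had 5.07 FPKM in young against 6.27 FPKM in old pituitary, with every old library higher (adjusted p = 0.14). Eefsec and Pstk, both needed to make selenoproteins, had 2.42 against 2.78 FPKM and 2.33 against 2.65 FPKM (adjusted p = 0.32 and 0.33). Dio3, the deiodinase that inactivates thyroid hormone, was too low to be tested, at 0 to 0.065 FPKM.

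Thra and Thrb encode the thyroid hormone receptors, of which the beta receptor is the one best known for restraining TSH. Thra was at 20.5, 13.1, 17.7 and 20.4 FPKM in the young libraries and 21.7, 22.2, 23.1 and 22.1 FPKM in the old libraries. All old values lay above all young ones, by a small margin, and the old values lay much closer together than the young. The separation was lost under the 3 other scalings, where young library 1 came to lie above every old library. The means were 17.9 ± 3.47 and 22.3 ± 0.570 FPKM (SD, n = 4 each), with a log2 fold change of 0.33 ± 0.15 (SE, limma adjusted p = 0.26) that was 0.18 to 0.20 under the 3 other scalings. Thra lies on chromosome 11 from 98740638 to 98769006 and shares 263 bases, or 5.70% of its exon length, with Nr1d1 on the other strand. Nr1d1, a repressor of the circadian clock, was at 17.0 FPKM in young against 20.7 FPKM in old pituitary (adjusted p = 0.47).

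Thrb was at 12.2, 18.8, 20.5 and 30.7 FPKM in the young libraries and 16.9, 17.8, 18.2 and 19.3 FPKM in the old libraries. The old values all lay inside the range of the young ones, whose highest, in young library 4, was well above the rest. The means were 20.5 ± 7.65 and 18.1 ± 0.999 FPKM (SD, n = 4 each), with a log2 fold change of -0.11 ± 0.25 (SE, limma adjusted p = 0.83), which was 0.11 without young library 4. Thrb lies on chromosome 14 from 17660261 to 18038090, and a fitted exon length of 6555 bases made its fragments whole where the annotation has 7403.

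Rxrg encodes the retinoid X receptor gamma, a partner of thyroid hormone receptors that is enriched in the pituitary. It was at 8.66, 7.21, 7.27 and 8.31 FPKM in the young libraries and 7.22, 8.10, 8.83 and 7.62 FPKM in the old libraries, which overlapped almost fully. The log2 fold change was 0.02 ± 0.11 (SE, limma adjusted p = 0.95), with -0.20 to 0.23 spanning 2 standard errors on either side, and it was between -0.13 and -0.12 under the 3 other scalings. Rxrg lies on chromosome 1 from 167598384 to 167639623.

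**Figure D3:**
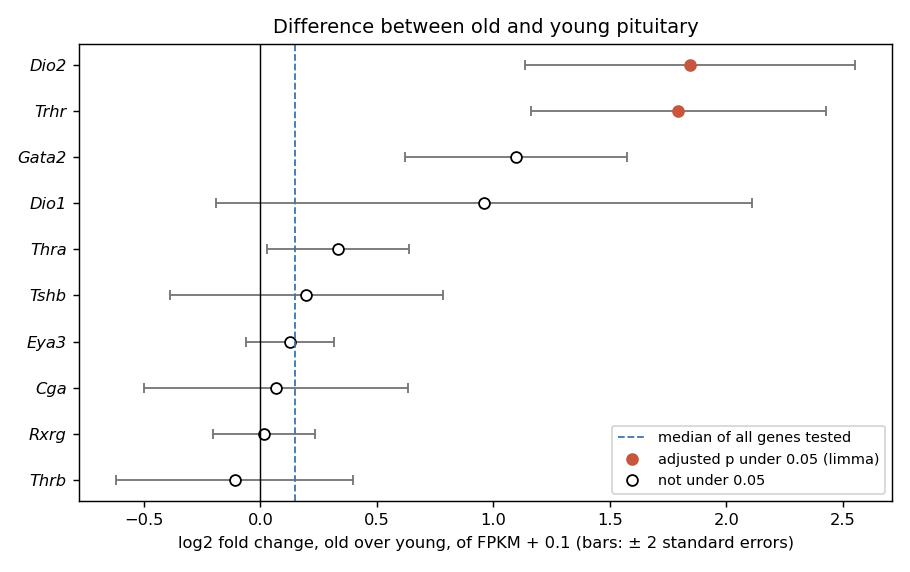
Log2 fold change of old over young on the log2(FPKM + 0.1) scale (x axis) for each of the 10 genes (y axis), with bars of 2 standard errors on either side, filled red where the adjusted p was under 0.05. Dio2 (1.85), Trhr (1.79) and Gata2 (1.10) stand apart from the dashed line at the median of all genes, while Tshb, Cga, Dio1, Eya3, Rxrg and Thrb have bars that cross 0.

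Cofactors of these receptors showed no call. Of 14 retinoid X receptor partners and cofactors, all 14 were tested and 0 passed with limma, and the median log2 fold change was 0.16. At an unadjusted p under 0.05, 3 were higher and 0 lower, against 18.0% and 3.79% of all genes tested, and voom called 1 higher. Ncoa3, a coactivator, was at 3.54, 3.49, 4.30 and 4.09 FPKM in young against 4.77, 5.48, 5.07 and 4.92 FPKM in old libraries, without overlap (log2 fold change 0.39, adjusted p = 0.097). Ep300, a histone acetyltransferase, had 5.62 and 6.88 FPKM without overlap (adjusted p = 0.14), and Rxrb, another retinoid X receptor, 5.96 and 7.57 FPKM with overlap (adjusted p = 0.21).

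Genes that thyroid hormone is known to act on gave 1 call. Of 8 such genes, all tested, 0 passed higher and 1 lower with limma, with a median log2 fold change of -0.06. At an unadjusted p under 0.05, 1 was higher and 2 lower, as with voom. The one that passed was Gh, the growth hormone gene, which is also the leading product of somatotrophs and is listed here because thyroid hormone raises it in rodents. It fell from 62323 to 24327 FPKM (log2 fold change -1.36 ± 0.13 SE, limma adjusted p = 0.0076), and it passed with each of the 8 libraries left out in turn. Thrsp, a lipogenic gene that thyroid hormone induces in liver, was at 5.47, 4.71, 4.09 and 5.64 FPKM in young against 6.95, 6.82, 7.75 and 6.66 FPKM in old libraries, without overlap (log2 fold change 0.50, adjusted p = 0.083). Klf9, a transcription factor that thyroid hormone induces in many tissues, was at 13.1, 14.6, 15.4 and 16.1 FPKM in young against 9.42, 12.2, 10.7 and 12.7 FPKM in old libraries, again without overlap but lower in old pituitary (log2 fold change -0.40, adjusted p = 0.13).

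Thyroid hormone enters cells through transporters, and 8 of the 9 transporters and binding proteins listed were tested. Of these, 0 passed with limma or voom, and 0 had an unadjusted p under 0.05. The median log2 fold change was 0.01, below that of all genes. Slc7a5, a part of an amino acid transporter that also carries thyroid hormone, had 9.41 FPKM in young against 11.8 FPKM in old pituitary (adjusted p = 0.49), and Ttr, a carrier of thyroxine in blood, 0.659 and 1.06 FPKM (adjusted p = 0.29).

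Other receptors that act on thyrotrophs included members that went both ways. Of 13 genes for such inputs, 10 were tested and 0 passed with limma, and 2 lay higher and 2 lower in every old library. Of all genes tested, 13.4% lay higher and 2.06% lower in every old library. At an unadjusted p under 0.05, 3 were higher and 2 lower, against 18.0% and 3.79% of all genes tested. Voom called 2 in each direction. Sstr3 and Sstr5, receptors for somatostatin, which inhibits TSH release, were both lower in every old library. Sstr3 was at 5.55, 3.98, 5.31 and 5.67 FPKM in young against 3.16, 3.24, 2.18 and 2.78 FPKM in old libraries (log2 fold change -0.83 ± 0.17 SE, limma adjusted p = 0.052). Under the 3 other scalings Sstr3 passed, at adjusted p of 0.039 to 0.047. Sstr5 was at 3.06, 1.48, 2.58 and 2.40 FPKM in young against 0.682, 1.27, 1.22 and 1.00 FPKM in old libraries (log2 fold change -1.11 ± 0.26 SE, limma adjusted p = 0.07). The somatostatin receptors did not all lie on one side: Sstr1, named after its values were seen, was higher in every old library, at 6.71, 4.87, 6.27 and 6.97 FPKM in young against 10.5, 7.61, 14.8 and 15.3 FPKM in old libraries (log2 fold change 0.90 ± 0.24 SE, limma adjusted p = 0.095). Sstr2 overlapped between ages (adjusted p = 0.73). Tshr, the receptor for TSH itself, had 31 fragments in young and 96 in old libraries, at 0.119, 0.0409, 0.0703 and 0.123 FPKM and 0.280, 0.255, 0.415 and 0.141 FPKM, without overlap (adjusted p = 0.094).

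Among the enzymes that put sulfated sugars on pituitary hormones and the sister hormone chains, 7 of 8 genes were tested, 0 were called higher and 1, Lhb, lower with limma. At an unadjusted p under 0.05, 2 were higher and 2 lower, and voom called 1 higher and 2 lower. B4galnt4, which adds N-acetylgalactosamine to the sugar chains of these hormones, had 4.13 FPKM in young against 5.53 FPKM in old pituitary, without overlap (log2 fold change 0.41, adjusted p = 0.064). B4galnt3, with the same activity, had 6.83 and 3.27 FPKM (log2 fold change -0.99, adjusted p = 0.18). In all 8 lists together, 77 of 89 genes were tested, 0 passed higher and 2 lower, and the median log2 fold change was 0.15, as for all genes.

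**Figure D4:**
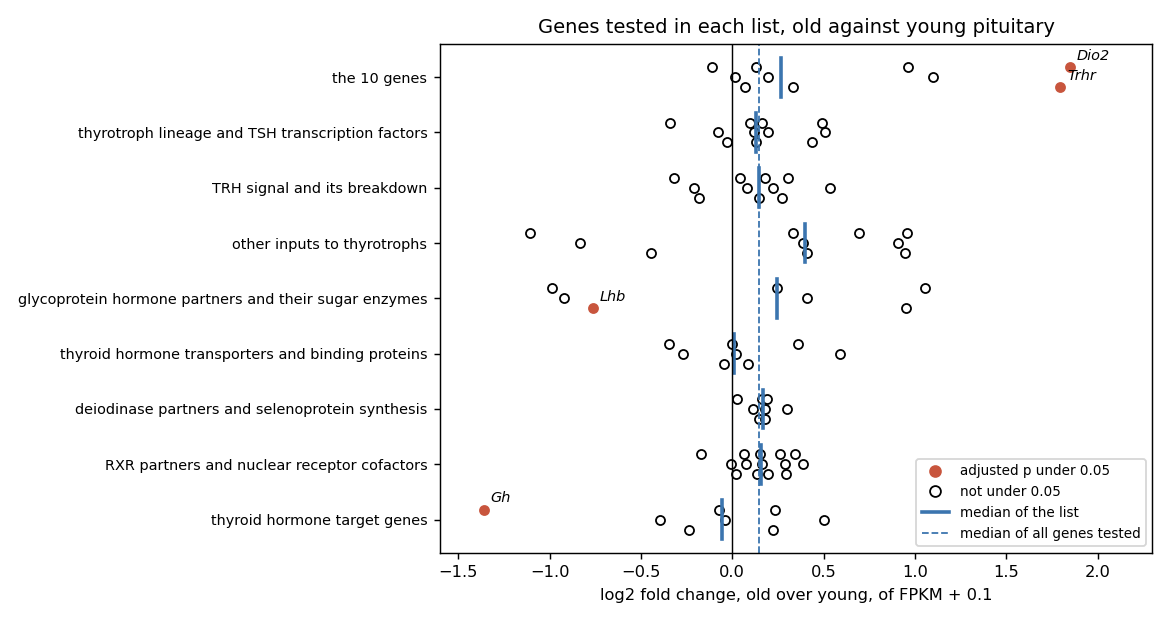
Log2 fold change of old over young on the log2(FPKM + 0.1) scale (x axis) of every tested gene in each list (y axis), with the median of each list as a blue bar and that of all genes tested as a dashed line. Red points passed the test, which were Trhr and Dio2 among the 10 genes, and Lhb and Gh in the other lists.

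Ratios of a pair of genes within a library do not depend on how libraries are scaled. The log2 ratio of Tshb to Cga was -6.52, -7.32, -7.38 and -6.80 in the young libraries and -7.34, -6.71, -7.59 and -5.85 in the old libraries. The ages overlapped, with old library 4 highest of all and old library 3 lowest, and the difference of 0.13 had a p of 0.86 in a two-sided exact permutation test over 70 splits. Without old library 4 the difference was -0.21. The log2 ratio of Thra to Thrb was 0.75, -0.52, -0.21 and -0.59 in the young libraries and 0.36, 0.32, 0.34 and 0.19 in the old libraries. All old libraries had more Thra than Thrb and lay between young library 1 and the other 3 young ones (difference 0.45, exact permutation p = 0.20). Without young library 1 the difference was 0.74 and p fell to 0.029, which is the smallest that 4 against 4 libraries or 4 against 3 allow. The log2 ratio of Tshb to Pou1f1 differed by 0.23 (exact permutation p = 0.29). Adjusted over the 3 ratios tested, the p-values were 0.86, 0.43 and 0.43 in this order. The p of 0.029 without young library 1 was not adjusted. A lone ratio at this smallest p would not pass after adjustment over the 3 ratios.

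The levels of Trhr, Gata2 and Dio2 per Tshb are given as a description, because these 3 ratios were chosen after the values had been seen. A ratio to Tshb does not place any of these genes in thyrotrophs. Trhr stood at 0.0734, 0.0701, 0.0507 and 0.0518 FPKM per FPKM of Tshb in the young libraries and at 0.277, 0.181, 0.342 and 0.118 in the old ones, with no overlap. Gata2 stood at 0.277, 0.379, 0.461 and 0.318 in the young and 0.799, 0.576, 0.975 and 0.447 in the old libraries, where old library 4 fell below young library 3. Dio2 stood at 0.768, 1.49, 0.994 and 0.705 in the young and 3.95, 2.78, 5.94 and 1.22 in the old libraries, where old library 4 fell below young library 2. In all 3 ratios old library 3 was the highest and old library 4 the lowest of the old.

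**Figure D5:**
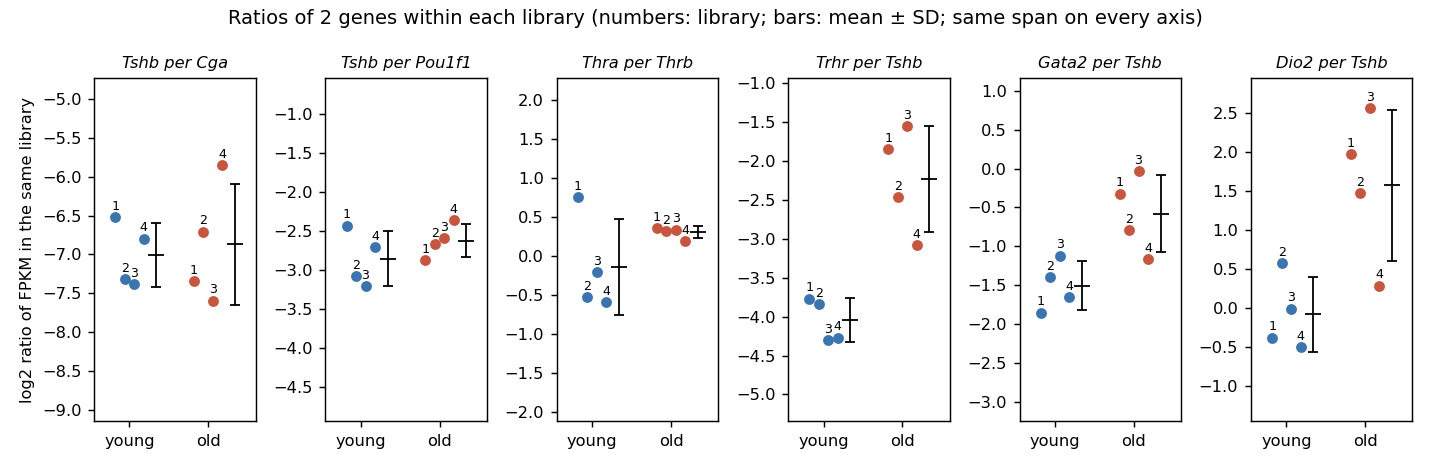
Log2 ratio of the FPKM of 2 genes within each library (y axes, all of the same span) in young (blue) and old (red) pituitary, numbered by library, with mean ± SD (n = 4 each). The first 3 panels hold the ratios tested and overlap between ages, and in the last 3, which were not tested, Trhr per Tshb does not overlap.

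The genes also differed in how they were ordered among libraries of the same age. In the old libraries, Trhr, Dio2, Cga and Eya3 had the same order, 3, 1, 2 and 4 from high to low. Gata2 had 3, 1, 4 and 2, and Thra and Rxrg had 3, 2, 4 and 1. Tshb had the order 4, 2, 3 and 1, so the old library with the most Tshb had the least Trhr, Dio2 and Cga. In the young libraries Trhr and Dio2 again shared an order, 1, 4, 2 and 3, and Tshb, Thra and Rxrg shared 1, 4, 3 and 2. With 4 libraries an age, these orders are a description.

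The gene whose pattern over the 8 libraries came closest to that of Tshb was Hapln1, which encodes a link protein of the extracellular matrix. Its root mean square difference from Tshb was 0.10 on the centred log2 scale, the smallest among 14587 genes that averaged at least 1 FPKM. Hapln1 was at 12.9, 4.56, 7.73 and 12.2 FPKM in the young libraries and 7.95, 10.1, 9.05 and 13.6 FPKM in the old libraries, and like Tshb it was lowest in young library 2 and highest in old library 4. Gm27027, Gm8666, Slc12a5 and Gm11899 followed, at 0.14 to 0.17. Among the members, Thra came next to Tshb at 0.26 (place 168), and Cga (0.54, place 12239), Gata2 (0.58), Trhr (0.91) and Dio2 (1.06, place 14208) were far from it. Both ages enter this measure, so the distances of Trhr and Dio2 include their difference between ages and are no separate result.

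The order of levels, per kilobase of exon, changed with age mainly through Dio2. In young pituitary the mean FPKM ran from Cga over Thrb, Thra, Tshb, Rxrg, Dio2, Eya3, Gata2 and Trhr to Dio1, and the ranges of Thrb and Thra, of Tshb and Rxrg, and of Rxrg and Dio2 overlapped. In old pituitary it ran from Cga over Dio2, Thra, Thrb, Tshb, Rxrg, Gata2, Eya3 and Trhr to Dio1, with overlap between Dio2 and Thra, Tshb and Rxrg, Rxrg and Gata2, and Gata2 and Eya3. Overlap was read only between neighbours in this order. By the mean, Dio2 went from the sixth place to the second, and Trhr and Dio1 were the lowest at both ages. In old library 4, Dio2 (14.1 FPKM) lay below both Thra (22.1 FPKM) and Thrb (19.3 FPKM). The place of Tshb, and places counted against it, rest on its exon length of 4555 bases. That length includes the transcript that keeps an intron.

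Markers of other cells in the gland were read for the whole series. The 6 macrophage markers gave 2 calls with limma and 6 with voom, all higher, all 6 lay higher in every old library, and they summed to 28.8 to 48.9 FPKM in young against 62.3 to 86.2 FPKM in old libraries. Their part in the levels of Trhr, Dio2 and Gata2 was not tested. The 7 markers of somatotrophs, lactotrophs, corticotrophs and melanotrophs gave 1 call with limma and 2 with voom, all lower, and summed to 134903 to 158563 FPKM in young against 99486 to 128614 FPKM in old libraries, so the hormones of the labelled tissue were abundant in every library. The 4 mesenchyme markers gave 1 call with limma and 2 with voom, all lower, and 2 lay lower in every old library. The 4 stem and folliculostellate markers gave 0 calls with limma or voom and 1 lower at an unadjusted p under 0.05. The 4 red cell markers gave 0 by all of these, with sums of 12.6 to 123 FPKM that varied within each age. Thyroid follicle markers summed to at most 0.376 FPKM and skeletal muscle markers to at most 0.731 FPKM. With library sizes set in 3 other ways, the log2 fold change at the median of all genes went from 0.15 to between 0.01 and 0.02, and the calls from 436 higher and 111 lower to 208 to 211 higher and 184 to 215 lower. Relative to the median gene, the log2 fold change over these scalings was 1.65 for Trhr, 1.69 to 1.70 for Dio2 and 0.94 to 0.95 for Gata2.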

How the data were processed

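By the labels and the methods of the study, the authors aligned reads with STAR (version 2.6.1a) to GRCm38, counted fragments over Ensembl genes with featureCounts and computed FPKM with edgeR (version 3.28.1). The authors deposited FPKM, 1 value per gene row and library. Neither the Ensembl release nor the strand setting is stated in these sources.

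The 10 genes and all gene lists were chosen with earlier results of these data known. Old and young libraries were compared with limma (version 3.58.1, R 4.3.3) on log2(FPKM + 0.1) without trend or robust options. The 23498 genes averaging 0.1 FPKM or more were tested, with Benjamini-Hochberg adjustment over all of them. Fragments were computed back from FPKM with exon lengths of GENCODE M21 (43133 rows) or, where these gave no whole numbers, the smallest length giving whole fragments in all 8 libraries (5522 rows). Between 91.3 and 92.0% of low values were whole within 0.01. Spans of 2 standard errors rest on the spread between libraries, and the floor for a count of 0 covers counting error only. Within-library ratios were compared with exact permutation tests. From each list that holds no cell type markers, at most 3 genes with the smallest unadjusted p are named, and marker genes only where a member is also expressed in that cell type. Pou1f1 is named for its ratio to Tshb, and genes too low to test, overlapping genes and the genes most like Tshb are named besides. A listed gene counted with its list is not reported here.

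The alternatives were pseudocounts of 1 and 0.01, no filter or a mean of at least 1 FPKM, 3 scalings (median-ratio, upper-quartile, and library size without 7 hormone and 3 ribosomal RNA repeat genes), a mean-variance trend, the replicate number as a block, each library left out, and voom, which was added after the data had been seen. The limma fit was tested on simulated data. Libraries of the same age differed by more than sampling noise and each counted as 1 sample. Promoters came from RefSeq. Ratios and figures were made in Python 3.11.15 (pandas 2.3.3, numpy 2.4.6, matplotlib 3.10.9).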

Additional observations from a re-analysis of the deposited data

Results flagged for a closer look

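In 2 of the 72 groups of 4 libraries that were checked, over 33 genes named from the members and lists and 3 ratios, 1 library stood far from the other 3 of its age. Chance sets about 1 in 20 such groups apart. Gata2 was at 8.52 FPKM in old library 3, against 5.15 to 5.58 FPKM in the other old libraries. Dio1 was at 0.851 FPKM, or 27 fragments, in old library 1, against 0.0263 to 0.145 FPKM in the others.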

How the results depend on the processing

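Over all genes, 436 were called higher and 111 lower. The number higher was 689 with a pseudocount of 1, 263 without a filter, 796 with a mean of at least 1 FPKM, 705 with a mean-variance trend, 208 with median-ratio scaling, 211 with upper-quartile scaling, 211 with the library size without hormone and ribosomal RNA repeat genes, and 1436 with voom. The number lower was 215, 204 and 184 with these 3 scalings and 356 with voom. With each library left out in turn, 64 to 327 were higher and 21 to 163 lower. Of the 10 genes, 2 were called higher as reported, 1 with a pseudocount of 0.01, 1 without a filter, 0 with each of the 3 scalings and 0 to 1 with each library left out. With the scalings both Trhr and Dio2 lay just over the threshold, and the cause was not tested. A library fewer leaves fewer samples to test with. Trhr was called under 7 of 18 other settings, Dio2 under 5 and Gata2 under 4, and all 3 were higher in old pituitary under every one.

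With the replicate number as a block, 4 genes were higher and 0 lower over all genes (4 and 0 of 23498), 0 of the 10 genes were called, and Trhr, Dio2 and Gata2 had adjusted p of 0.16, 0.16 and 0.15. Nothing in the labels says that libraries of the same number belong together. The correlation of the deviations of same-numbered libraries was -0.037 to 0.037, and not every library correlated best with its own number.

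The sign turned for genes that were never called. Under median-ratio, upper-quartile and reduced library size scaling, the log2 fold change was -0.084, -0.078 and -0.067 for Cga, -0.13, -0.13 and -0.12 for Rxrg, and -0.022, -0.016 and -0.0055 for Eya3. With each library left out in turn it was -0.032 to 0.37 for Tshb, -0.16 to 0.28 for Cga, -0.34 to 0.11 for Thrb and -0.036 to 0.063 for Rxrg. The log2 ratio of Tshb to Cga differed by -0.21 to 0.37 and that of Thra to Thrb by 0.30 to 0.74 with each library left out. With 4 libraries an age, the ratios cannot give a p below 0.029, and Dio1 rests on 0 to 27 fragments a library.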
